A study of Mus musculus with 2 samples.

Results

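The genes described here are those of cAMP, protein kinase A (PKA) and RGS signalling, set beside the places where FOS was found on chromatin of mouse granulosa cells. They were taken by symbol: phosphodiesterases (Pde), adenylyl cyclases (Adcy), A-kinase anchoring proteins (Akap), PKA subunits (Prkac and Prkar), Rap exchange factors (Rapgef), RGS proteins (Rgs), CREB coactivators (Crtc), salt-inducible kinases (Sik) and CREB factors (Creb). The list was chosen with earlier results of these data known. In all, 99 of the 21887 protein-coding genes in the RefSeq gene table used matched. Akap2, which that table lists only as Pakap, was added because peaks carry its name, which made 100 genes. Of the 2374 FOS peaks, 27 were assigned to 1 of them. The cells were wild-type granulosa cells, the somatic cells around the oocyte, from ovaries of females 25 days old that had been primed with PMSG, a gonadotropin that drives follicle growth. They were taken 3 h after hCG, a gonadotropin that binds the same receptor as luteinizing hormone. The series has 2 libraries, both of that genotype, treatment, time and age, 1 from immunoprecipitation with a FOS antibody and 1 whose label names no antibody. Only the peak list of the FOS library was analysed here. There was no replicate, no cell without hCG and no read count, so the depth is unknown, no value carries an error between animals, and nothing below shows a response to hCG.

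The luteinizing hormone receptor couples to the stimulatory G protein, which activates adenylyl cyclase, and cAMP then activates PKA and the Rap exchange factors called EPAC. Phosphodiesterases break cAMP down, anchoring proteins hold PKA at set places in the cell, and RGS proteins speed the shut-off of G proteins. In the nucleus PKA phosphorylates CREB, while salt-inducible kinases keep the CRTC coactivators of CREB in the cytoplasm until PKA inhibits those kinases. FOS is a subunit of AP-1, and its own gene is a classic target of CREB. In granulosa cells this cascade starts the ovulatory programme.

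A peak can carry 2 gene names in the authors' table, and they can differ. The nearest gene is the one whose transcription start site (TSS) in the authors' annotation lies closest to the peak centre. The host is the gene named in brackets in the annotation, whose intron, exon, promoter or end contains the peak. Of the 18 peaks hosted by these genes, 7 (38.9%, exact Clopper-Pearson 95% interval 17.3 to 64.3) were assigned to a different nearest gene. Across the whole list 23.1% of the 1534 peaks with a host were, a share inside that interval. In all, 11 of the 27 peaks named the same gene both ways, 9 named it only as nearest gene and 7 only as host. Intervals cover counting error only, and peaks or genes of 1 library are not replicates.

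By nearest gene, 13 of the 100 genes had a peak (13.0%, exact 95% interval 7.11 to 21.2), where 7.58% of all protein-coding genes did. By host, 14 had a peak (14.0%, interval 7.87 to 22.4), where the share of all protein-coding genes was 5.64%. By either name the count was 19 (19.0%, interval 11.8 to 28.1) beside 8.69%. The background share lay inside the interval for nearest genes and below it for hosts and for either name. Because the list was chosen with earlier results known, no interval here or below serves as a test against the background. The 2 counts share 8 genes: Pde1a, Akap6, Rapgef3, Rgs12, Rgs7, Crtc3, Creb3l1 and Creb3l2. Akap2, Rgs1, Rgs2, Rgs21 and Sik1 were covered only as nearest gene. Akap2 entered the list only because peaks carry its name, so it adds to the nearest-gene and either-name counts by construction. Pde3b, Pde7b, Akap9, Akap13, Rapgef4 and Creb1 were covered only as host. The other 81 genes had no peak by either name. Stronger or closer peaks gave smaller counts and smaller backgrounds. At or above the median score of all peaks, the counts were 8 by nearest gene, 8 by host and 10 by either name, beside 4.12%, 3.02% and 4.75% of all protein-coding genes. At or above the upper quartile they were 5, 4 and 6, beside 2.2%, 1.63% and 2.55%. A peak within 50 kb of the TSS of its nearest gene left 8 genes, beside 6.0%, and within 10 kb 5 genes, beside 3.48%.

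**Figure D1:**
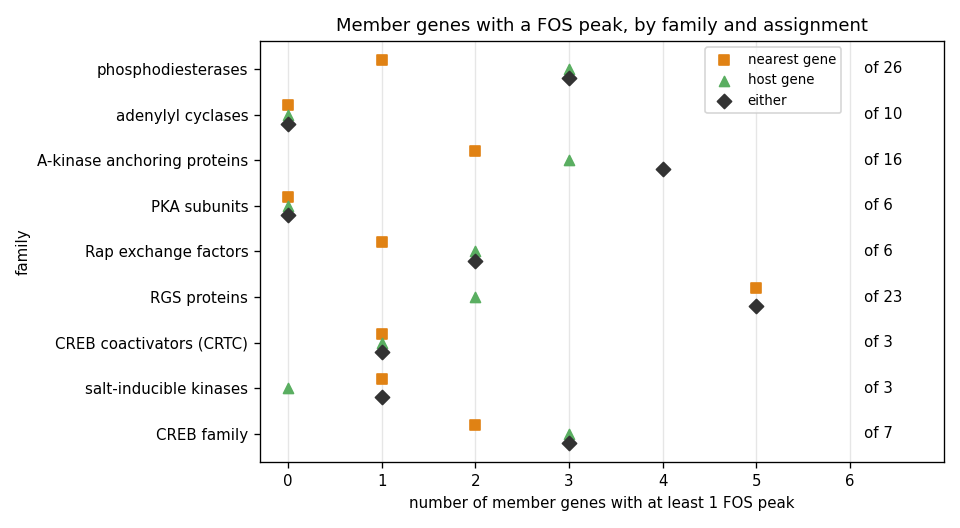
Number of genes with at least 1 FOS peak (x axis) in each of the 9 gene families (y axis), by nearest gene (squares), host gene (triangles) and either (diamonds), with the family size at the right. Adenylyl cyclases and PKA subunits sit at 0, and the RGS family is the one with more nearest genes (5) than hosts (2) beside the salt-inducible kinases (1 and 0).

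The core enzymes that make cAMP and respond to it had no peak. None of the 10 adenylyl cyclases was named by a peak in either way (0.0%, exact 95% interval 0.0 to 30.8). None of the 6 PKA subunit genes was either (0.0%, interval 0.0 to 45.9). With families of this size, the shares of all protein-coding genes, 7.58% by nearest gene and 5.64% by host, lie inside both intervals. The closest peaks to the cyclases were a median of 290 kb from the gene span, from 22.6 kb at Adcy10, the soluble cyclase, to 4470 kb at Adcy2. Over all 81 genes without a peak by either name the median was 237 kb, with quartiles of 126 and 757 kb. Adcy9, a membrane cyclase, had a peak of score 29 at 84.6 kb that was assigned to Crebbp. Among the PKA genes, Prkar1b, a regulatory subunit, had a peak of score 55 lying 1.99 kb outside its span, assigned to Pdgfa. Prkar1a, the other type I regulatory subunit, had one of score 118 at 27.5 kb, assigned to Wipi1. Prkaca, the main catalytic subunit, had one of score 79 at 36.4 kb, assigned to Il27ra. Prkar2a, Prkar2b and Prkacb were 283, 424 and 853 kb from any peak.

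The strength of these peaks was ordinary for the list. The score that the authors deposited for each peak, which has no stated scale and serves here to order peaks, had a median of 66 over the 27 peaks and ran from 18 to 179. The median of all 2374 peaks was 67. In all, 13 of the 27 (48.1%) scored at or above that median, and 9 (33.3%, exact 95% interval 16.5 to 54.0) reached the upper quartile of 99, as 26.0% of all peaks did. Peak width was also close to that of the list, with a median of 341 bp against 342 bp.

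**Figure D2:**
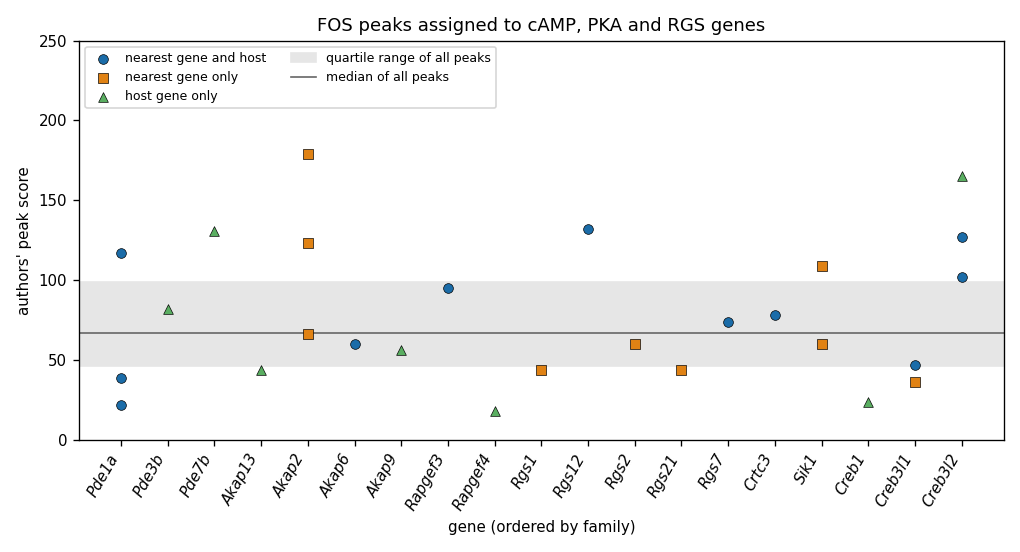
Authors' peak score (y axis) of each of the 27 peaks, by gene (x axis, ordered by family); markers show whether the gene was named as nearest gene, host or both, the grey band runs from the lower to the upper quartile of all peaks (46 to 99) and the line their median of 67. Akap2 and Creb3l2 hold the highest scores, 179 and 165, and Rapgef4 the lowest, 18.

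These peaks were mostly intronic and far from a TSS. In all, 18 of 27 (66.7%, exact 95% interval 46.0 to 83.5) lay in introns, where 44.7% of all peaks did. First introns held 8 of those 18 (44.4%), beside 40.9% of all intronic peaks. Only 2 (7.41%, interval 0.91 to 24.3) were in the promoter class, which held 15.2% of the list, 6 were intergenic and 1 was in an exon. Their median distance to the nearest TSS was 42.6 kb, against 18.2 kb for the list. A peak with a host lies in or at the end of a gene by definition. The 7 peaks named only by host also lie nearer to the TSS of another gene. The intronic share and the distances of the 27 thus partly follow from how these peaks were gathered.

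The promoter peaks belonged to Rapgef3 and Crtc3. Rapgef3 encodes EPAC1, the exchange factor that lets cAMP activate Rap without PKA. Its peak, at chr15:97767910-97768257 (mm10), scored 95, rank 658 of 2374, and was centred 417 bp upstream of the TSS. That distance is from the TSS in the authors' annotation: the RefSeq span of Rapgef3 starts farther upstream, and the peak centre lies 0.336 kb inside it. The same stretch lies inside the span of Rapgef3os2, a noncoding RNA gene, and the file names Rapgef3 both ways. Crtc3 encodes a CREB coactivator, and its peak at chr7:80689336-80689676 scored 78, rank 929, and was centred 629 bp upstream. Neither Crtc1 nor Crtc2 had a peak, and the closest ones lay 83.2 and 212 kb away. The 250 bases before each TSS are shown because these are the members whose promoters a peak reached or adjoined. They come from the RefSeq promoter table (GRCm38.p6, the assembly that mm10 names), minus strand, 5′ to 3′, and capitals mark bases inside the peak.
Rapgef3, chr15:97767667-97767916: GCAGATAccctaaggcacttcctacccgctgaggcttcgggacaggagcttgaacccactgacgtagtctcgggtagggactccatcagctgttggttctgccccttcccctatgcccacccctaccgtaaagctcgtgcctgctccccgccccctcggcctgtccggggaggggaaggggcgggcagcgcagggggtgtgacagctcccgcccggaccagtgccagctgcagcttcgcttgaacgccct
Crtc3, chr7:80688878-80689127: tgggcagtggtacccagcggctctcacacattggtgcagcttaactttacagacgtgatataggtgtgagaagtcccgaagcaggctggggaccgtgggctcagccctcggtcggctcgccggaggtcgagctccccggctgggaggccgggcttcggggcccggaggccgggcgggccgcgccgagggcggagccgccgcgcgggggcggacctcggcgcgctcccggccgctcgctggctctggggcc
Just 7 bases of the Rapgef3 window fell inside its peak, and the Crtc3 window ended 208 bases short of its peak. Both windows were rich in G and C (66.0% and 73.6%, against a median of 52.4% over all promoters in the table) and held 15 and 30 CpG dinucleotides. The Rapgef3 window held 1 match to TGACG, the core of the cAMP response element, and the Crtc3 window none, on either strand. Neither held TGACTCA or TGAGTCA, the AP-1 motif. The peaks' own bases lie almost wholly outside these windows and were not analysed here.

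The promoter table had entries for 80 of the 100 genes, with 139 windows that run from 250 bases before to 50 after a TSS. The AP-1 motif, as TGACTCA or TGAGTCA (a palindrome apart from its centre, searched on both strands), was in 10 of them (7.19%), where 5.2% of all 32851 windows held it. These were windows of Rgs12, Pde6b, Creb5, Pde1c, Adcy7, Rgs17, Creb3l3, Akap1 (a pair that overlap) and Akap4, and none of the 10 overlapped a peak. Over the whole table the motif was in 26.8% of the 365 windows that a FOS peak overlapped and in 4.96% of the others. The full cAMP response element TGACGTCA was in 3 windows of these genes (2.16% against 1.79%), 1 of Creb5 and an overlapping pair of Prkar1a, and none of them overlapped a peak. TGACG, which the full element contains, was in 35 of the 139 (25.2% against 20.8%). The only one of the 139 windows that a peak overlapped was that of Rapgef3.

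Of 26 genes with a Pde symbol, 3 had a peak by either name (11.5%, exact 95% interval 2.45 to 30.2). The share of all protein-coding genes, 8.69%, lay inside that interval. Not all of the 26 act on cAMP, since they include enzymes specific for cGMP. The 3 with a peak were long genes, and each of their peaks lay in an intron. Pde1a, a phosphodiesterase activated by calcium and calmodulin, held 3 peaks, each in intron 1 of 14. The strongest, at chr2:79983036-79983611, scored 117 (rank 424) and lay 146 kb downstream of the TSS in the authors' annotation. The others, at chr2:79945860-79946264 and chr2:80069915-80070234, scored 39 and 22. RefSeq also has Pde1a promoter windows inside the gene, at chr2:80038853-80039152 and chr2:79908350-79908649. For each of the 3 peaks, at least 1 of these windows lies closer than the TSS in the authors' annotation. The 3 peaks were spread over 124 kb, with at least 37.3 kb between neighbours, and the weakest ranked 2310 of 2374. Pde7b, specific for cAMP, held a peak of score 131 (rank 336) in intron 2 of 12, at chr10:20486712-20487187. It was assigned to Mtfr2, a mitochondrial fission regulator, whose TSS is 139 kb away. RefSeq also has a Pde7b promoter window at chr10:20548279-20548578, closer to the peak than that TSS. The nearest gene of this peak thus depends on the set of TSSs used. Pde3b, the form that insulin activates, held a peak of score 82 in intron 9 of 15, at chr7:114520143-114520540. It was assigned to Cyp2r1, a vitamin D hydroxylase, at 42.6 kb. By nearest gene Pde1a alone was counted among the 26. The 4 Pde4 enzymes, which are specific for cAMP, had no peak by either name. The closest lay 78.2 kb from Pde4a, 179 kb from Pde4c, 686 kb from Pde4d and 853 kb from Pde4b. The median over the 81 genes without a peak was 237 kb, so Pde4a and Pde4c were closer than that. Pde4d and Pde4b span 1300 and 520 kb, so long genes were not always hit.

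Among anchoring proteins 4 of 16 had a peak by either name (25.0%, exact 95% interval 7.27 to 52.4), and the 8.69% of all protein-coding genes lay inside that interval. Akap2 is among the 4 by construction, since it entered the list through its peaks. The highest score of the 27 peaks was at Akap2. The file names Akap2 as the nearest gene of 3 peaks and Pakap, the joint gene of Palm2 and Akap2, as their host, in intron 6 of 8. The RefSeq table lists the locus only as Pakap, 463 kb long. A peak of score 206 in that span was assigned to Palm2 and is not among the 27. The peak at chr4:57798120-57798775 scored 179, rank 130 of 2374, and was centred 46.8 kb upstream of the Akap2 TSS. It was also the widest of the 27, at 656 bp. The one at chr4:57839372-57839834 scored 123 and was centred 5.64 kb upstream, and the one at chr4:57805005-57805288 scored 66, 40.1 kb upstream. The remaining anchoring genes with a peak had 1 each, of lower score. Akap6, which holds PKA at the nuclear envelope of muscle cells, had a peak in intron 1 of 13 that scored 60. Akap9, a scaffold of the centrosome and Golgi, held one of score 56 in intron 25 of 47, assigned to Cyp51, a cholesterol synthesis enzyme 67.7 kb away. Akap13, a large anchoring protein, held one of score 44 in intron 10 of 36, assigned to Klhl25, 181 kb away.

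**Figure D3:**
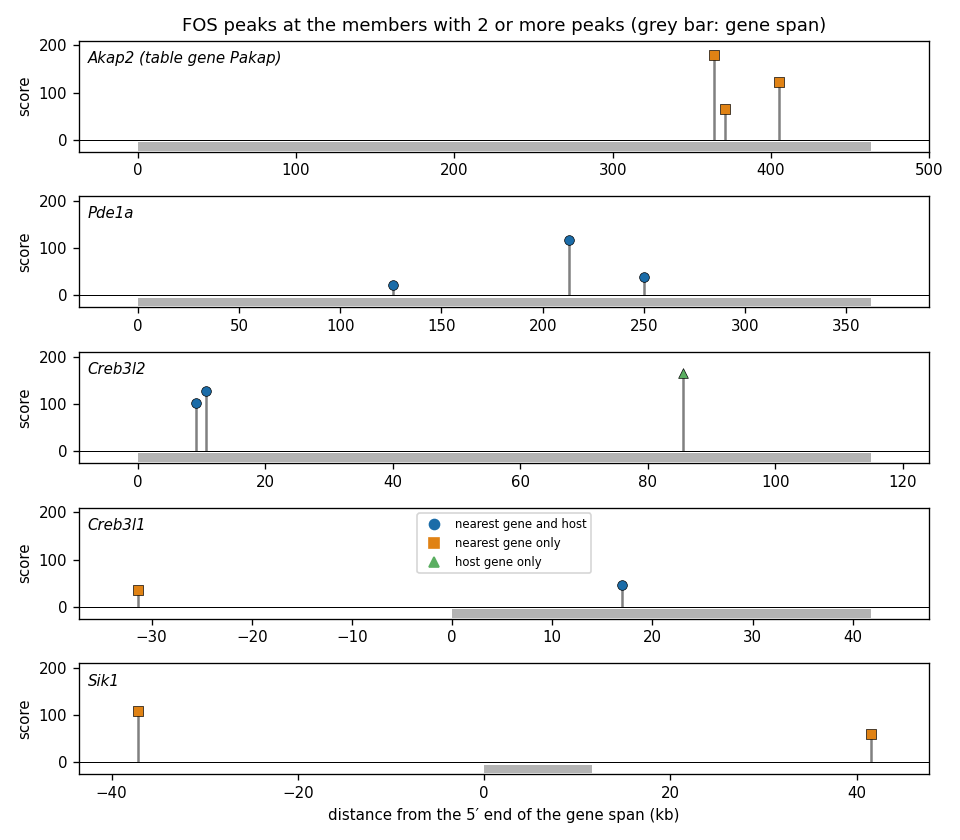
Authors' score (y axis) of the peaks at the 5 genes with more than 1 peak, against distance from the 5′ end of the gene span in kb (x axis, a separate scale for each gene; negative is upstream); the grey bar is the gene span and markers show how the gene was named. The 3 Akap2 peaks lie 364 to 405 kb into the Pakap span, the Creb3l2 pair lies 9.18 and 10.7 kb into the gene, and both Sik1 peaks lie outside the gene.

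The CREB family had peaks at 3 of 7 genes by either name (42.9%, exact 95% interval 9.9 to 81.6), beside 8.69% of all protein-coding genes, just below the interval of this small family. The same 3 were covered by host, beside 5.64%. By nearest gene 2 of 7 were covered (28.6%, interval 3.67 to 71.0), and the background of 7.58% lay inside that interval. The strongest were at Creb3l2. This gene and Creb3l1 encode factors held in the membrane of the endoplasmic reticulum and released by cleavage, which serve the secretory pathway more than cAMP. Creb3l2 held a pair of peaks in intron 1 of 11, at chr6:37431365-37431699 (score 127) and chr6:37432940-37433253 (score 102). Their centres were 1.56 kb apart, the smallest spacing between peaks of any gene here. A further peak in its intron 5 of 11, at chr6:37356530-37356949, scored 165 (rank 166) and was assigned to Dgki, a diacylglycerol kinase 56.8 kb away. All 3 were above the upper quartile of the list. Creb3l1 had weaker ones: a peak of score 47 in intron 1 of 11, at chr2:92006977-92007291, and an intergenic peak of score 36 at chr2:92055404-92055678, 31.4 kb upstream. Creb1, the factor that PKA phosphorylates, had a single peak of score 24 (rank 2290) in its last exon, 7 of 7, assigned to Mettl21a. Creb5 had none, and the closest, of score 544, lay 461 kb away and was assigned to Tax1bp1. Creb3, Creb3l3 and Creb3l4 had no peak either.

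Of the salt-inducible kinases only Sik1 had a peak. Sik1, itself induced by cAMP in many cells, restrains CRTC coactivators. Its peaks stood on both sides of the gene, which is 11.6 kb long. The upstream one, at chr17:31892828-31893239, scored 109 (rank 486) and lay 37.2 kb from the TSS. The downstream one, at chr17:31814188-31814466, scored 60 and lay 41.5 kb from it. Both were intergenic, 78.7 kb apart, and each was the other's closest peak. Sik3 had a peak of score 90 at 48.8 kb, assigned to Sidt2, and Sik2 one of score 41 at 74.4 kb, assigned to Alg9.

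The other Rap exchange factor with a peak was Rapgef4, which encodes EPAC2. Its peak in intron 11 of 29 scored 18, rank 2353 of 2374, and was assigned to the kinase gene Zak, 88.5 kb away. The promoter peak of Rapgef3 scored 95, so the genes of the 2 EPAC proteins held peaks from the upper and the lowest parts of the list. Rapgef1, Rapgef2, Rapgef5 and Rapgef6, which do not bind cAMP in the way EPAC does, had no peak by either name.

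RGS genes were covered at 5 of 23 (21.7%, exact 95% interval 7.46 to 43.7), all by nearest gene and 2 of them also as host. The shares of all protein-coding genes, 7.58% by nearest gene and 8.69% by either name, lay inside that interval. Rgs12, a large RGS protein with several signalling domains, had the strongest peak, at chr5:34955756-34956198 in intron 1 of 16, 6.53 kb downstream of the TSS. It scored 132, rank 331. Rgs7, best known from neurons, held a peak of score 74 in intron 3 of 16, 253 kb from its TSS, the largest distance of the 27. The remaining 3 belong to a row of 5 RGS genes (Rgs2, Rgs13, Rgs1, Rgs21 and Rgs18) that spans 776 kb of chromosome 1. Rgs2, which acts on Gq, had an intergenic peak of score 60 that lay 62.5 kb downstream of its TSS, outside that row. Rgs1, an RGS protein of lymphocytes, had one of score 44 at 106 kb upstream, and Rgs21 one of score 44 at 11.8 kb upstream. Inside the row there were only those 2 peaks, both below the median score, and all 3 were intergenic, so no RGS gene of the row held one. Rgs4, Rgs5, Rgs8 and Rgs16, also on chromosome 1, were 1370, 1360, 1440 and 1390 kb from any peak.

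Gene length went with the host count. These genes were long, with a median span of 76.6 kb against 17.2 kb for all protein-coding genes. The 14 that held a peak had a median of 138 kb and the other 86 one of 58.0 kb. Akap2 counts among the 86, and below among long genes without a peak, because the authors name its host Pakap. Its table span of 463 kb overlapped 5 peaks. Over all protein-coding genes, hosts likewise had a median of 57.8 kb and the rest 16.1 kb. Among genes of 100 kb or more, a limit chosen after the values were seen, 10 of 41 held a peak (24.4%, exact 95% interval 12.4 to 40.3), and 17.2% of all protein-coding genes that long did. Among shorter genes 4 of 59 did (6.78%, interval 1.88 to 16.5), beside 4.2%. Both backgrounds lay inside those intervals. Counted by length, the spans of the 100 genes overlapped 22 peaks in 13.5 Mb, or 1.63 per Mb, and those of all protein-coding genes 1.39 per Mb, a peak in overlapping genes counting for each. Without the Akap2 locus, whose table span also takes in Palm2 and 2 peaks hosted there, the rate of these genes was 1.3 per Mb. For spans of 100 kb or more the rate was 1.59 per Mb, or 1.2 without the Akap2 locus, beside 0.949 for all protein-coding genes that long. By overlap with the table's spans in place of the authors' host, 14 of the 100 genes held a peak, beside 5.7% of all protein-coding genes. These are not the same 14: Akap2 comes in, and Crtc3 drops out, its peak lying 0.388 kb outside its span. The part of length in the host count was not tested further.

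**Figure D4:**
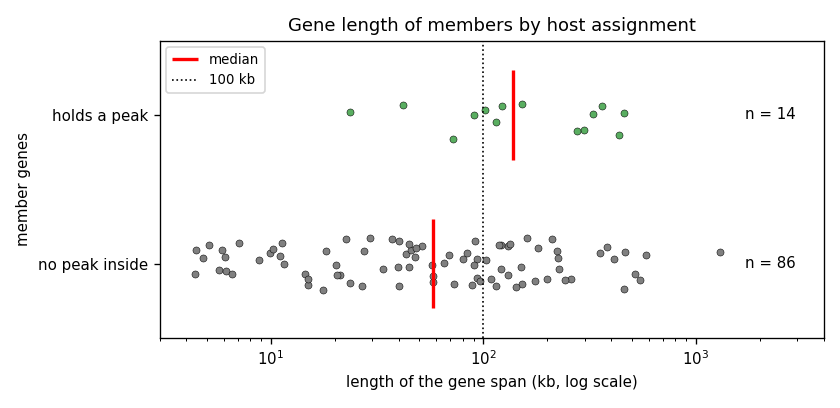
Length of the gene span in kb (x axis, log scale) for the 14 genes that held a peak and the 86 that did not (y axis; vertical jitter only separates points); red bars are medians (138 and 58.0 kb) and the dotted line marks 100 kb. Most genes that held a peak are long, and many long genes, up to 1300 kb, held none. Akap2 is drawn among those without a peak, because the host of its peaks is named Pakap.

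A peak within 50 kb of the gene span, whichever gene it was assigned to, was found at 29 of the 100 genes (29.0%, exact 95% interval 20.4 to 38.9), beside 18.2% of all protein-coding genes. This added 12 of the 81 genes that no peak named: Adcy10, Akap8, Akap8l, Akap10, Creb3, Creb3l3, Prkaca, Prkar1a, Prkar1b, Rgs9, Rgs10 and Sik3. It left out Rgs1 and Rgs2, whose peaks lie farther away. The strongest of these neighbouring peaks, of score 231, lay 20.3 kb from Akap10 and was assigned to Specc1.

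Genes of the same pathway that the symbols do not take in were covered at 7 of 60 by nearest gene (11.7%, beside 7.58%) and at 3 of 60 by host (5.0%, beside 5.64%). Of 22 receptors and ligands, Lhcgr, the luteinizing hormone receptor, alone had a peak, of score 31 and 72.7 kb upstream. None of 11 G protein alpha subunits and none of 7 receptor kinases and arrestins was named. Of 14 kinase inhibitors, Rap proteins and other effectors, 4 were nearest genes. Popdc2, of the cAMP-binding Popeye proteins, had a peak of score 101 that lies in the last exon of Pla1a. Rap1a, the small GTPase that EPAC activates, had one of score 92 at 6.55 kb upstream. Popdc3 had one of score 77 in intron 1 of 3, and Abcc4, a transporter that exports cAMP, one of score 66 at 3.69 kb upstream. Of 6 CREB relatives and coactivators, Atf1 had a promoter peak of score 90, centred 617 bp upstream, and Crebbp, which encodes the coactivator CBP, a peak of score 29 in intron 1 of 30.

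A peak list does not measure expression, so it cannot show which cells the library held. By either name peaks were found at 6 of 11 granulosa markers (Lhcgr, Cyp19a1, Inhba, Nr5a2, Esr2 and Hsd17b1), 1 of 4 theca markers (Cyp17a1), none of 4 oocyte markers, 1 of 4 endothelial markers (Cdh5) and 1 of 4 leukocyte markers (Itgam), beside 8.69% of all protein-coding genes.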

How the data were processed

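ChIP-seq for FOS was analysed from 1 library. The submitters' processing notes name the mm10 build, MACS2 2.2.7.1, BWA, deepTools 3.5.1 and Trim Galore. Per the file headers, the authors annotated a narrowPeak file with the annotatePeaks program of HOMER. How peaks were filtered, and against which control, is not given in the sources used here. As deposited, the peak score has no stated scale and was used only to describe and rank peaks. Deposited positions and distances to the TSS were used unchanged.

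Genes were matched to a RefSeq table of GRCm38.p6 by accession, symbol, then older symbol. All 1965 nearest-gene names and 1311 of 1314 host names matched. The background was 21887 protein-coding genes on the autosomes, X and Y. Akap2 is a member only by the authors' symbol, so it has a peak by construction. The members and lists were chosen with earlier results of these data known, so no test was made: shares carry exact Clopper-Pearson 95% intervals. A peak within a gene overlaps it by at least 1 base. Every member with a peak is named, with positions for promoter peaks, the 12 highest scores and genes with 2 or more peaks, and every covered gene of the other lists. Members without a peak, and neighbouring genes, were named after their values were seen. The counting was tested on simulated data. Alternatives covered score, distance, membership, gene model and assignment. Python 3.11.15, numpy 2.4.6, pandas 2.3.3, scipy 1.17.1 and matplotlib 3.10.9 were used.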

Additional observations from a re-analysis of the deposited data

How the results depend on the processing

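Limiting peaks to scores of 67 or more, the median, left 8 genes by nearest gene, 8 by host and 10 by either name. Scores of 99 or more left 5, 4 and 6. With the nearest gene limited to 50 kb from the TSS 8 genes were counted, and to 10 kb, 5. Counting any peak within 50 kb of the gene span, whichever gene it named, gave 29 genes. These settings use fewer or more peaks by construction. The other settings kept each count within 1.5 times: the 2 noncoding genes that match changed none, and leaving out cGMP-specific enzymes, the Creb3 family and RGS-binding proteins gave 11, 12 and 17 of 85. That setting drops Creb3l1 and Creb3l2. Added after seeing the data, counting Pakap as Akap2 gave 15 hosts and overlap with the table's spans 14. The overlap count takes in Akap2 and leaves out Crtc3. The median score was 70 by nearest gene, 76 by host and 63 in the reduced set. No paired analysis was possible because the series has 1 library with a peak list. Depth is unknown, so a missing peak does not show that FOS was absent.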
